A study of Notamacropus eugenii with 7 samples.

Results

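A set of 4 miRNAs known from blood cells were followed in the milk and blood serum of lactating tammar wallabies, to read how much blood-cell miRNA each fluid carried. They were chosen by name from the deposited table, as miR-451 (erythroid cells), miR-223 (myeloid cells), miR-142 (leukocytes in general) and miR-150 (lymphocytes), and make up 4 of the 346 miRNAs named there and 4 of the 102 listed in at least 1 library. Small RNA had been sequenced from 5 skim milk libraries, at days 35 and 75 of lactation (phase 2A), days 120 and 175 (phase 2B) and day 250 (phase 3), and from 2 serum libraries of lactating mothers, at days 120 and 175. No animal was treated beyond the anaesthesia and oxytocin used for milking, milk of several females was pooled for each day, and the serum also came from more than one female per day. Each day of each fluid is 1 column of values with no replicate of its own. The series record speaks of duplicates at day 175 without naming the fluid, and whether a day 175 column combines them is not known. The study's text also gives slightly different days than the labels for the libraries called days 75 and 120 here. The values are percentages of all annotated miRNA reads of a library, rounded to 3 decimals, in which a 0 was read as a miRNA present at under 0.0005% and an empty entry as an absent one.

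MiRNAs are short RNAs that guide Argonaute proteins to messenger RNAs and lower the protein made from them. Several are made almost only in cells of the blood lineages. MiR-451 is transcribed together with miR-144 during red cell formation, is cut by Argonaute 2 without Dicer, and is among the most abundant miRNAs of mature red cells. MiR-223 rises during granulocyte development and is carried by neutrophils, monocytes and platelets. MiR-142 is made in nearly all haematopoietic cells, and miR-150 in mature B and T lymphocytes. Cell-free fluids receive such miRNAs from vesicles, protein complexes and broken cells. In fluids without cells, more contributing cells and more miRNA released per cell cannot be told apart. Milk had been spun to remove fat and cells before RNA was isolated, and milk and serum RNA were isolated with different kits, so that fluid and kit cannot be told apart.

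The 4 miRNAs were together a trace of both fluids, and a larger trace of serum than of milk. Their sum was 0.082% of annotated miRNA reads in serum at day 120 and 0.174% at day 175. In day 35 milk the sum was 0, and in milk of days 75, 120, 175 and 250 it was 0.002%, 0.01%, 0.047% and 0.011%. All 5 milk sums were lower than both serum sums. Within milk the sum at day 175 was the highest, and most of it was a single miRNA, the erythroid miR-451.

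**Figure D1:**
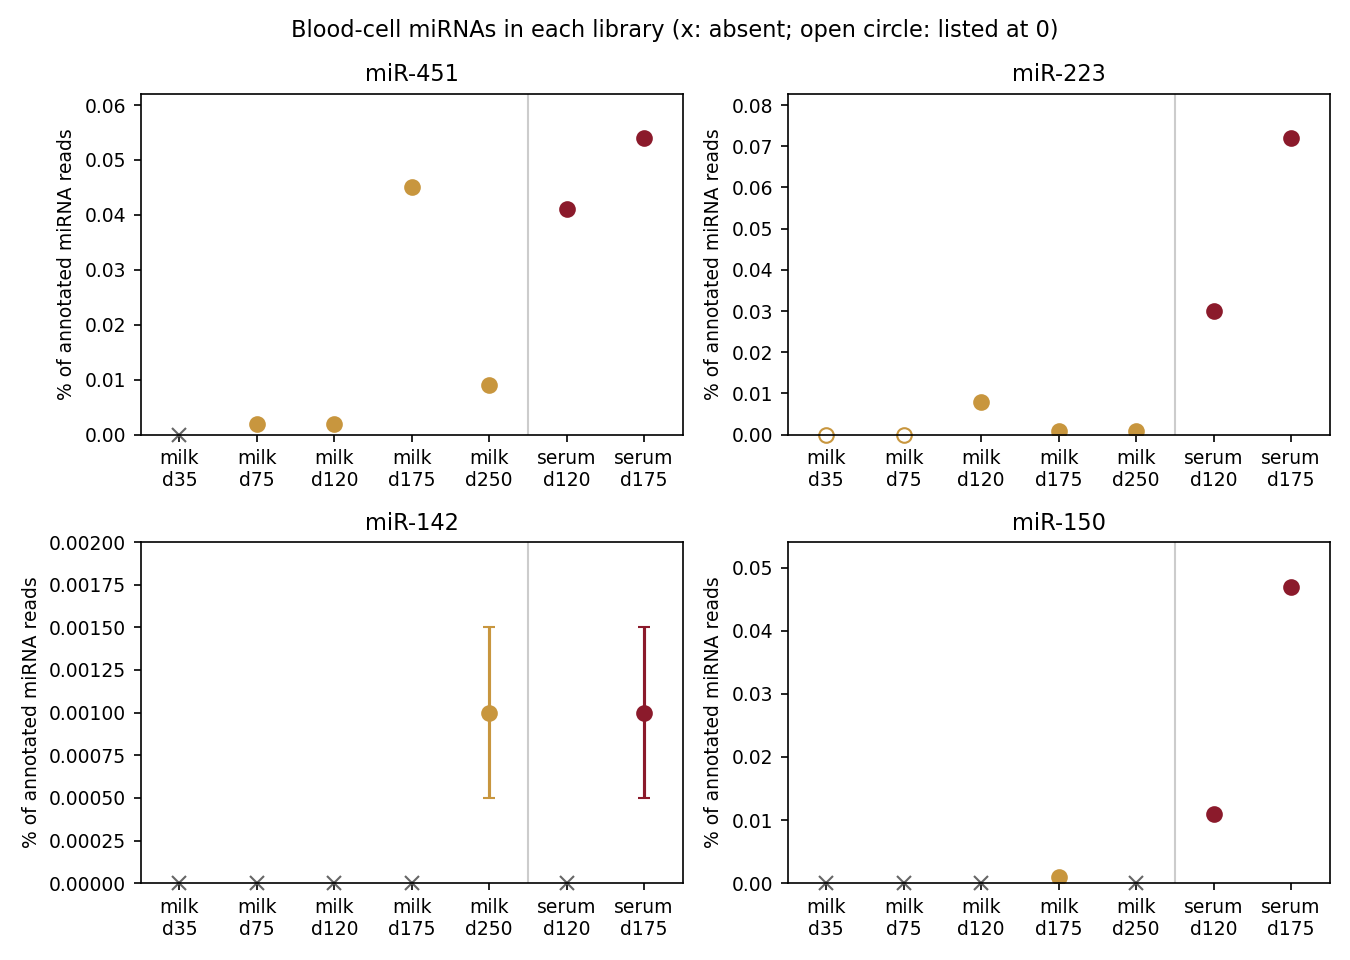
Percent of annotated miRNA reads (y axis, a separate scale for each panel) of the 4 blood-cell miRNAs in the 5 milk and 2 serum libraries (d, day of lactation). Points are single libraries, bars show the 0.0005 percentage points of rounding where larger than the point, crosses mark absent entries and open circles entries listed at 0; miR-451 at 0.045% in day 175 milk and miR-142 at 0.001% in day 250 milk are the milk points at the height of serum.

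Depth sets how an absent entry can be read. The library of day 35 milk listed 48 miRNAs, that of day 120 milk 58, and the other 5 between 74 and 86. Read numbers are not part of the deposited values, so that the depth behind a percentage is unknown from them and no counting error is given. The study's text states read totals, which were not used here. On this reading an entry at 0 had at least 1 read at under 0.0005%, which requires over 200000 annotated miRNA reads, and 6 of the 7 libraries hold such entries. Day 175 milk holds none, its smallest listed value being 0.001%. The listed shares of that library summed to 95.8%, against 97.6% to 99.6% in the other 6.

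MiR-451, the erythroid member, was absent from milk at day 35. Milk of days 75, 120, 175 and 250 held 0.002%, 0.002%, 0.045% and 0.009%. The serum libraries held 0.041% (day 120) and 0.054% (day 175). The day 175 milk value lay between both serum values, while the other 4 milk values were below them. In order of level, serum of day 175 was highest, followed by milk of day 175, serum of day 120, milk of day 250, and milk of days 75 and 120 at the same printed value. Rounding does not join the first 4 of these levels, but no replicate shows whether they differ beyond the spread between animals.

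The step of miR-451 in milk from day 120 to day 175 was 22.5-fold, and between 17.8 and 30.3-fold within rounding. It was among the highest of the 56 miRNAs with at least 0.001% in both libraries, whose median step was 1.6-fold, and its exact place is not resolved by the printed digits. From day 175 to day 250 miR-451 was 5.0-fold lower, within 4.68 and 5.35-fold, against a median step of 0.643-fold over 67 miRNAs. Over the same interval from day 120 to day 175, serum miR-451 moved 1.32-fold. The milk step was therefore far larger than the serum step, although each compares only 1 library with 1 other.

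MiR-144, the partner of miR-451 on the same primary transcript, was listed in 5 of the 7 libraries and at or above 0.001% in 3 of them. It took 0.002% in day 175 milk and 0.001% in both serum libraries, was listed at 0 in milk at days 75 and 250, and was absent from milk at days 35 and 120. The highest milk value of both miRNAs thus fell in the same library. MiR-451 was 22.5 times miR-144 in day 175 milk, 41.0 times in day 120 serum and 54.0 times in day 175 serum. The rounding ranges of these ratios overlap between milk and day 120 serum, from 17.8 to 30.3 and from 27.0 to 83.0. MiR-486, likewise abundant in red cells, and the alternative name miR-451a held no value in any library.

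MiR-223, the myeloid member, was listed at 0 in milk at days 35 and 75. Milk of days 120, 175 and 250 held 0.008%, 0.001% and 0.001%. The serum libraries held 0.03% (day 120) and 0.072% (day 175), and in the latter miR-223 was the highest of the 4 members. All milk values were below both serum values. Its highest milk value fell at day 120, 1 time point before that of miR-451.

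Between days 120 and 175 miR-223 went in opposite directions in the fluids. In milk it was 8.0-fold lower at day 175, within 5.0 and 17.0-fold by rounding, which was among the lowest steps of the 56 miRNAs compared. In serum it was 2.4-fold higher, among the higher steps of 63 miRNAs with a median step of 1.0-fold. The difference between these steps was not tested, as each fluid has 1 library per day.

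MiR-150, the lymphocyte member, was absent from 4 of the 5 milk libraries. The exception was day 175, with 0.001%. Its serum values were 0.011% (day 120) and 0.047% (day 175). Every milk library was thus below both serum libraries, and the serum step of 4.27-fold was among the highest of the 63 miRNAs. No fold can be given against the libraries from which miR-150 was absent.

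MiR-142, made throughout the leukocyte lineages, was the scarcest member. It was listed in 2 of the 7 libraries, with 0.001% in day 250 milk and 0.001% in day 175 serum. Both values lie at the smallest step the table can print. At day 175 it was listed in serum and absent from milk, and the highest milk value equalled the highest serum value, unlike in the other members. The name stands for a hairpin whose both arms are used in leukocytes, and the table does not say which arm was counted.

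**Figure D2:**
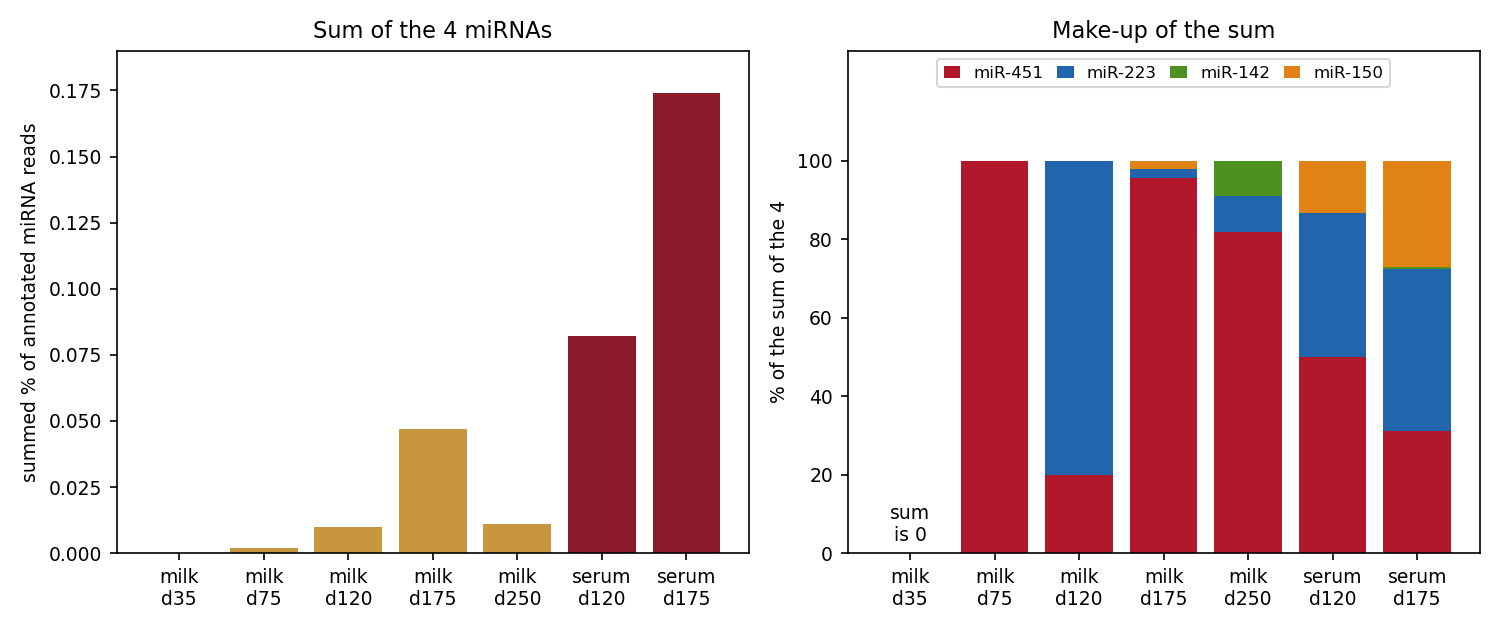
Left, summed percent of annotated miRNA reads taken by the 4 blood-cell miRNAs in each library (bars start at 0; d, day of lactation). Right, percent of that sum belonging to each miRNA: miR-451 made up 95.7% in day 175 milk and 31.0% in day 175 serum, and the sum in day 35 milk was 0.

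The make-up of the blood-cell miRNAs differed between libraries. Ratios of 2 miRNAs inside 1 library do not depend on how abundant the other miRNAs are. MiR-451 was 0.041% of the summed 0.082% in day 120 serum, and made up 31.0% of the sum in day 175 serum. In milk it made up 95.7% of the sum of day 175 and 81.8% of that of day 250. Day 120 milk held the reverse, with 0.008% of miR-223 in a sum of 0.01%. Myeloid miR-223 made up 36.6% and 41.4% of the serum sums, and 2.13% and 9.09% of the milk sums of days 175 and 250. Lymphocyte miR-150 made up 13.4% and 27.0% in serum, and 2.13% in day 175 milk.

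The ratio of miR-223 to miR-451 was 0.732 in serum at day 120 and 1.33 at day 175. In milk it was 4.0 at day 120, with a rounding range of 3.0 to 5.67. It was 0.0222 in day 175 milk, within 0.011 and 0.0337, and 0.111 in day 250 milk, within 0.0526 and 0.176. The milk ratios thus lay on both sides of the serum ratios, above them at day 120 and below them on both later days. The ratio of miR-150 to miR-451 was 0.268 and 0.87 in serum and 0.0222 in day 175 milk. On the printed shares, miR-451 in day 175 milk (0.045%) lay between day 120 serum (0.041%) and day 175 serum (0.054%). MiR-223 and miR-150, at 0.001% each in that milk, were below both serum libraries. The place of miR-451 depends on the denominator. Its day 175 milk to serum ratio was 0.833, and 0.29 without miR-10b and miR-191.

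Scaled to miR-16, a widely expressed miRNA that is abundant in red cells and ranged only from 0.081% to 0.145% over the 7 libraries, the order of the highest levels of miR-451 changed. The ratio of miR-451 to miR-16 was 0.0138, 0.0235, 0.549 and 0.106 in milk of days 75, 120, 175 and 250. It was 0.506 and 0.412 in serum, so that day 175 milk came out above both serum libraries on this scale. The ratio of miR-223 to miR-16 was 0.0941, 0.0122 and 0.0118 in milk at days 120, 175 and 250, against 0.37 and 0.55 in serum.

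The question of the design for these miRNAs was how far milk and maternal serum carry the same ones. For a test across miRNAs, limma was fitted to the 5 milk and 2 serum libraries. The values were percentages with 0.001 added, on a log2 scale, and the 85 miRNAs reaching 0.001% in 2 or more libraries entered. Differences are on this scale, which understates the change of miRNAs near 0.001%. The days stand in for replicates, so the error includes changes over lactation. Of the 85 miRNAs, 18.8% had an adjusted p under 0.05 in either direction and 7.06% were called lower and 11.8% higher in milk. The calls were 10 higher and 6 lower in milk, and 8 higher and 13 lower when miR-10b and miR-191, both among the most abundant miRNAs, were left out of the denominators. All 4 members could be tested. MiR-150 would have passed the filter through its serum values alone, so that its direction was largely set by the filter. Its value is given as a description and supports nothing further. MiR-142 passed with exactly 2 libraries.

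**Figure D3:**
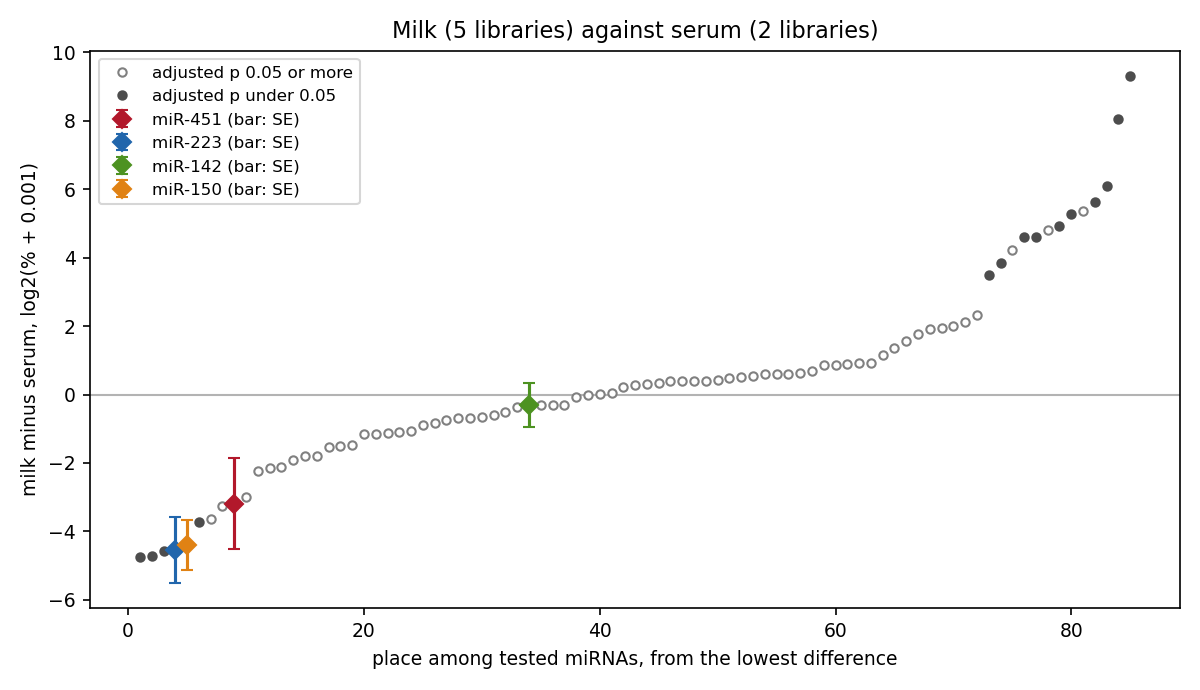
Milk minus serum difference (y axis, log2 of percent plus 0.001) of the 85 tested miRNAs in order of size (x axis). Filled grey points had a limma adjusted p under 0.05; diamonds with standard errors are the 4 members, of which miR-223 and miR-150 stand at places 4 and 5 from the low end, miR-451 at place 9 and miR-142 at place 34.

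MiR-223 was lower in milk, with a difference of -4.54 ± 0.95 (standard error) and an adjusted p of 0.00815 in limma. For miR-150, with the limit of the filter, the difference was -4.38 ± 0.73 (adjusted p of 0.00198 in limma). Both were lower than either serum library in 5 of 5 milk libraries, a separation shown by 15.3% of the tested miRNAs. That share includes miR-150 and others, such as miR-1, whose serum values alone would have passed the filter and whose milk values were at most at its limit. The difference of miR-451 was -3.18 (standard error 1.32, limma adjusted p = 0.131), with 4 of 5 milk libraries below serum, and did not pass. That of miR-142 was -0.30 (standard error 0.64, limma adjusted p = 0.779). The call of miR-223 stands beside 7.06% of all 85 tested miRNAs called lower in milk and a median difference of 0.29, and miR-150 is not counted with it.

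With exact permutation tests over the 21 ways of dividing 7 libraries into 5 and 2, two-sided p was 0.0952 for miR-223 and for miR-150, the smallest that this design allows. It was 0.19 for miR-451 and 1.0 for miR-142. At days 120 and 175 the serum came, as the study states, from mothers also used for milk. With only these days, and the day as a block, none of miR-451, miR-223 and miR-150 was called, and miR-142 could not be tested. The limma adjusted p was then 0.305 for miR-223 and 0.0939 for miR-150. In that fit 0 of 75 miRNAs passed, while 20 had an unadjusted p under 0.05. As it called no miRNA at all, it cannot decide on single members. The block left the matched-day differences unchanged, at -3.49 for miR-223 and -4.08 for miR-150. Without the day 175 serum library miR-223 and miR-150 also lost their calls, at a limma adjusted p of 0.132 and 0.0606. MiR-451 in turn passed without the day 175 milk library, with a difference of -3.96 and a limma adjusted p of 0.0307. It also passed on the denominators without miR-10b and miR-191, with -4.73 and a limma adjusted p of 0.0273.

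On matched days the members stood at different places. At day 120 miR-451 was 20.5-fold lower in milk than in serum, within 16.2 and 27.7-fold by rounding, and was among the miRNAs with the lowest milk to serum ratio of the 55 with at least 0.001% in both. Rounding does not resolve its place from those of several others, such as miR-10b, which is named after its values were seen. MiR-223 was 3.75-fold lower, at place 12 from the low end. The median ratio of the 55 was 0.95. At day 175 the places were exchanged. MiR-223 was 72.0-fold lower in milk, within 47.7 and 145.0-fold, and miR-150 was 47.0-fold lower, within 31.0 and 95.0-fold. These were the lowest ratios of the 64 miRNAs, in an order that rounding does not resolve. MiR-451 was only 1.2-fold lower, at place 20, where the median ratio was 2.3. Relative to miR-16 the day 175 ratio of miR-451 became 1.33, higher in milk, and without miR-10b and miR-191 it was 0.29. Without these, the other ratios were also lower, at 0.0232 for miR-451 and 0.127 for miR-223 at day 120, and at 0.00483 for miR-223 and 0.00739 for miR-150 at day 175.

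**Figure D4:**
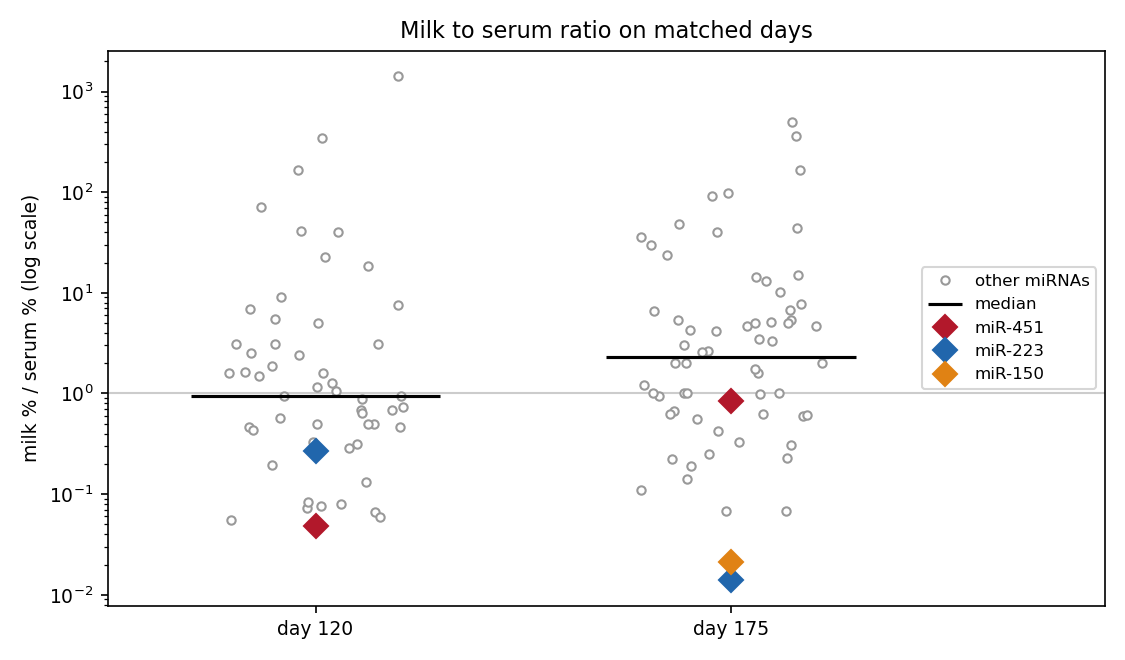
Ratio of milk percent to serum percent (log scale) for miRNAs with at least 0.001% in both fluids, 55 at day 120 and 64 at day 175, each point comparing 1 milk with 1 serum library. Diamonds are the blood-cell miRNAs and black lines the medians; miR-451 is among the lowest at day 120, with a place that rounding does not resolve, and near 1 at day 175, where miR-223 and miR-150 are lowest.

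Other miRNAs linked to blood cells were taken from lists chosen for their known expression. Besides miR-144 and miR-16, the erythroid list held miR-15a of the miR-16 cluster, and miR-92 and miR-25, both abundant in red cells. Of its 6 miRNAs 5 were tested in limma and 0 passed in either direction, beside 18.8% of all 85, nor did any have an unadjusted p under 0.05, and their median difference was -0.68, against 0.29 for all 85. The list took 1.14% to 3.93% of milk miRNA reads, and 3.88% and 5.16% of serum reads. MiR-15a stood at 0.89 in the direction of milk (limma adjusted p = 0.492), and the other 4 were below 0.

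The leukocyte list held miR-155 and miR-342, which were listed in no library, and miR-146a, an entry shared by miR-181c with miR-181a, miR-181b and miR-125b. Of the 4 tested in limma, 0 passed in either direction, beside 18.8% of all 85, and 1 had an unadjusted p under 0.05, while 3 were below 0, with a median of -1.84. The list took 5.28% to 7.74% of milk reads and 3.81% and 4.51% of serum reads, so that unlike the 4 members its sum was higher in all milk libraries. Most of that sum was the entry of miR-181c with miR-181a, and the other 3 tested had differences below 0. MiR-146a, induced by inflammatory signals in leukocytes and in epithelium, took from 0 at day 35 to 0.153% at day 250 in milk, and 0.259% and 0.426% in serum, with a log2 difference of -3.27 (limma adjusted p = 0.278). All its milk values were below both serum values. The miR-181c and miR-181a entry, known from lymphocyte development, was higher in all milk libraries than in serum, at 5.02% to 7.53% against 3.14% and 3.59%, with a difference of 0.86 (limma adjusted p = 0.364).

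MiRNAs of other sources were read for comparison. The epithelial list, the miR-200 family members with miR-205a, took between 0.742% and 6.5% of milk miRNA reads and 0.009% and 0.027% of serum reads. MiR-200a held no value in any library under that name, so these sums leave it out. The study's text names it as miR-200a-5p and miR-200a-3p. Of 5 tested, miR-141 and miR-429 were called higher in milk, beside 11.8% of all 85, and 0 lower, with a median of 5.26. In limma 4 of the 5 had an unadjusted p under 0.05, miR-141, miR-429, miR-200b and miR-200c. MiR-200b and miR-200c were listed at 0 in both serum libraries and passed the filter through milk alone, which largely set their direction. The median and the count of 4 include them and support nothing further. MiR-429 belonged to the list and is named beyond the first 4 because it was called. The sum of the 4 blood-cell miRNAs was 9.11 times the epithelial sum in day 120 serum and 6.44 times in day 175 serum. In milk it was between 0 and 0.00762 times the epithelial sum, with 0.00762 at day 120 and 0.00723 at day 175, an order that rounding does not resolve. On this scale the rise of miR-451 in day 175 milk went along with an epithelial sum of 6.5%, the highest of the 5 milk libraries. Whether that has a part in the miR-451 value was not tested.

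MiR-126, known from endothelium and platelets, was absent at day 35 and took 0.001%, 0.002%, 0.007% and 0.006% of milk reads on the later days, and 0.034% and 0.05% in serum. Its difference was -3.72 (limma adjusted p = 0.0179). It was the only one of 4 tested miRNAs of other blood-borne or tissue sources to be called lower in milk, beside 7.06% of all 85. In limma 2 of the 4 had an unadjusted p under 0.05, miR-126 and miR-1. MiR-1 passed the filter through its serum values alone, which set its direction, and supports nothing further. MiR-122 of liver took 0.001% to 0.04% in milk, and 0.096% and 0.009% in serum. Of the muscle miRNAs, miR-1 was listed in serum alone, at 0.009% and 0.001%, and miR-133a reached at most 0.008%, in day 120 serum.

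The miRNAs most like each member over the 7 libraries were found by the root mean square difference of mean-centred log2 values. For miR-451 they were miR-221 at 0.588, miR-126 at 0.826 and miR-215 at 1.03, where the median over the other 84 miRNAs was 2.11. MiR-221 took 0 in milk at day 35, 0.006%, 0.008%, 0.066% and 0.028% on the later days, and 0.143% and 0.117% in serum, with its milk maximum in the same library as miR-451. For miR-223 the nearest were miR-10a at 0.854, miR-10b at 1.02 and miR-150 at 1.06, against a median of 2.63. For miR-150 they were miR-10a at 0.591, miR-10b at 0.809 and miR-126 at 0.938, against 2.33. MiR-126 was near both miR-451 and miR-150. MiR-150 was above 0 in 1 of 5 milk libraries, at 0.001%, so that its pattern is set by its 2 serum values. MiR-223 was above 0 in 3 of the 5, at most at 0.008%. No contrast between cell lineages is drawn from these neighbours. These distances rest on 7 libraries, 5 of milk and 2 of serum.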

How the data were processed

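Skim milk and serum RNA of tammar wallabies was sequenced on an Illumina HiSeq. The authors cleaned reads, trimmed adaptors, annotated known miRNAs with miRanalyzer and deposited, per library, each miRNA's percent of all annotated miRNA reads, rounded to 3 decimals. Counts and depth are not part of these values, so no count test was run, and precision is the rounding of 0.0005 percentage points. All 7 columns were used. Absent entries were taken as 0. The fit used limma 3.58.1 in R 4.3.3 on log2 of percent plus 0.001, without a covariate and with Benjamini-Hochberg adjustment over all 85 miRNAs of at least 0.001% in at least 2 libraries. Tested on simulated data for this comparison, with 20 of 85 miRNAs changed and an SD of 0.7 on the log2 scale, below the milk SD of miR-451 (2.10) and miR-223 (1.29), it recovered 75.2% at a log2 change of 2 and 100% at 4, with 0.58 and 0.78 false calls per run. Exact permutation tests used scipy 1.17.1 (Python 3.11.15).

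Rounding ranges divide the lowest by the highest value that rounding allows, and the reverse. The members and the 4 further lists were chosen with earlier results of these data known. Values are given for the members, up to 4 of each list in its written order (the rest of a list is named only, except where called), miR-16 for scaling and, for each member but miR-142, the 3 nearest patterns. Days follow the sample labels. The study states that serum of days 120 and 175 came from mothers also used for milk, and its methods give fewer females for serum than for milk. A fit with the day as a block was added for this reason. The changes between these days in milk and in serum correlated at -0.118 across 85 miRNAs, which are not independent. The alternatives were other pseudocounts, filters, denominators and centrings, matched days, and each library left out. Sequences are not given here.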

Additional observations from a re-analysis of the deposited data

Results flagged for a closer look

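Within the 5 milk libraries, 1 library stood apart from the other 4 for each of the 4 members, by a gap over 0.71 of the whole range. For miR-451 this was day 175, at 0.045%. For miR-223 it was day 120, at 0.008%. For miR-142 it was day 250 and for miR-150 day 175, both at 0.001%, the only milk libraries that listed them. A gap of the whole range follows whenever 1 library alone lists a miRNA, so the flags of miR-142 and miR-150 add nothing to that. Chance gives about 1 such gap in 20 groups of alike samples, but these libraries are different days and many values are tied at 0.

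MiR-223 moved in opposite directions between days 120 and 175, by log2 -3.00 in milk and 1.26 in serum. The difference of 4.26 was not tested, as there is 1 library per fluid and day.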

How the results depend on the processing

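In the comparison of milk with serum the differences of miR-451 and miR-223 were below 0 under each of 16 alternatives. Those of miR-150 (16 alternatives) and miR-142 (11) were also below 0, which supports nothing further. MiR-142 had a single entry of 0.001% in each fluid, so that its sign largely follows from the unequal numbers of libraries. MiR-223 was called in 13 of 16 (limma adjusted p from 0.00402 to 0.305), miR-451 in 2 of 16 (0.0273 to 0.47) and miR-142 in 0 of 11 (0.514 to 0.94). For miR-150, whose direction the filter largely set, the adjusted p ran from 0.00145 to 0.0939, which is no sign of stability. With days 120 and 175 alone the difference was -3.49 for miR-223, not called with or without the day as a block. For miR-150 it was -4.08 with that block, also not called. Leaving out each library gave -5.16 to -3.92 for miR-223, -5.38 to -3.38 for miR-150 and -3.96 to -2.58 for miR-451. Denominators without miR-10b and miR-191, which move the median difference of all miRNAs from 0.29 to -0.83, gave a call of miR-451 at -4.73. MiR-10b alone took 69.2% (day 120) and 55.4% (day 175) of serum miRNA reads, and at most 3.76% of milk reads. On these days, leaving both miRNAs out raises by arithmetic the other serum shares more than the milk shares. The cause of the other shifts was not tested. Of all tested miRNAs 16 were called, 6 of them lower in milk. With matched days and the day as a block 0 were called in either direction, and 20 had an unadjusted p under 0.05. Matched days without it gave 3 lower in milk, and the other denominators 13. With each library left out, 9 to 18 were called, and 2 to 7 lower in milk. Ratios that rest on 0.001% or 0.002% are limited by rounding alone to a range of 1.5-fold or more.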
